A study of Mus musculus with 8 samples.

Results

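Dkk2 and canonical Wnt signalling were examined through 8 genes: the secreted antagonist Dkk2, the co-receptor genes Lrp5 and Lrp6, and the beta-catenin pathway genes Ctnnb1, Axin1, Apc, Gsk3b and Tcf7l2. They were taken by symbol from the deposited comparison, where all 8 were found among 15853 genes, and each of the 8 had an adjusted p-value. Dkk2 was selected on its log2 fold change, already known to be among the strongest falls in this comparison, and the others for their place in its pathway. The values of the members are therefore a description and support nothing by themselves.

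The knockout group comprised 4 RNA-seq libraries of genotype Mirc11fl/fl Mirc22fl/fl Lyz2Cre/Cre, and the control group comprised 4 of genotype Mirc11fl/fl Mirc22fl/fl Lyz2+/+. Bone marrow cells of mice were grown into macrophages over 7 days in L929 conditioned medium, and both groups were then treated with palmitate (C16:0) at 250 uM, glucose at 25 mM and insulin at 10 nM, with a labelled time of 24 h. The floxed clusters Mirc11 and Mirc22 each give rise to miR-23, miR-24 and miR-27, and Cre is driven from both copies of Lyz2, a myeloid gene. The groups thus differ in Cre and in Lyz2 itself as well as in the clusters, and these cannot be told apart. The age and sex of the mice are not given in the labels used here.

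In canonical Wnt signalling, a Wnt protein brings a Frizzled receptor together with Lrp5 or Lrp6. This stalls a complex built on Axin and Apc, in which Gsk3b marks beta-catenin (Ctnnb1) for destruction. Beta-catenin then accumulates, enters the nucleus and binds TCF factors such as Tcf7l2, which turn on target genes. Dickkopf proteins such as Dkk1 and Dkk2 bind Lrp5 and Lrp6 from outside the cell, and with the Kremen proteins they can take these co-receptors off the surface.

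Mature miRNAs of the clusters are shown because their seeds, the bases that pair with a target, define the matches searched for in the 8 genes. Capitals mark the seed, bases 2 to 8 from the 5′ end, and the sequences are from RefSeq (GRCm38.p6).
miR-23a-3p: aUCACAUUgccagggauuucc
miR-27a-3p: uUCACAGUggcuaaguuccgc
miR-27b-3p: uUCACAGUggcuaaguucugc
miR-24-3p: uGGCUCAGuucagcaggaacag
miR-27a-3p and miR-27b-3p, from different clusters, share their seed, and miR-24-3p is made from both clusters. Of the other cluster's miR-23, miR-23b-3p, the name alone is given.

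Of the 8 genes, 5 held a match of 7 or 8 bases to at least 1 of the 3 seeds in their longest annotated 3′ UTR (GENCODE M21, GRCm38). That is 62.5%, against 53.0% of 13717 genes of the deposited table with an annotated 3′ UTR. The matches of Dkk2, Lrp6, Axin1 and Gsk3b are shown 5′ to 3′ on the transcript, with the matching bases in capitals, as is that of an Lrp5 transcript with a shorter 3′ UTR.
Dkk2, miR-27: gtcatcactagcagACTGTGAA
Dkk2, miR-23: ggtttaagctttgtgATGTGAA
Lrp6, miR-27: gcttctcggtatgcgCTGTGAA
Axin1, miR-24: cagcagggggataccCTGAGCC
Gsk3b, miR-23: catcatagctaagtAATGTGAA
Gsk3b, miR-27: ggggcagatctcaccACTGTGA
Gsk3b, miR-24: ggctgcgagtggactCTGAGCC
Lrp5 (shorter 3′ UTR), miR-23: ttttaacaagtgagaAATGTGA
Dkk2 and Gsk3b were the 2 members with an 8-base match (25.0%, against 19.3% of the 13717 genes). In Dkk2 the 8 bases fit miR-27 and begin 29 bases after the stop codon, at chr3:132178149-132178156 on the plus strand in exon 4 of 4. A 7-base miR-23 match lies near the other end of the same 2184-base UTR, 1911 bases after the stop codon, at chr3:132180031-132180037.

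The longest UTRs belonged to Gsk3b, Lrp6 and Apc, so matches there are common among genes of like length. Gsk3b has a 3′ UTR of 5515 bases with a match for each of the 3 miRNAs, the 8-base miR-23 match at chr16:38241590-38241597 and the 7-base miR-27 match at chr16:38241511-38241517, both in exon 11 of 11. Among genes with a 3′ UTR within 20% of that length, 95.4% held a match. The same share was 75.2% among genes with a UTR of like length to that of Dkk2. Lrp6 has a 7-base miR-27 match at chr6:134449570-134449576 (minus strand, exon 23 of 23), and 93.2% of genes with a UTR of like length held a match. Apc held 2 matches of 7 bases for miR-27 and 1 for miR-23, in exon 16 of 16 on chromosome 18. Axin1 has a short UTR of 750 bases with a 7-base miR-24 match at chr17:26195723-26195729 in exon 11 of 11, and 39.3% of genes with a UTR of like length held a match. Ctnnb1, Tcf7l2 and the longest Lrp5 UTR had none. The longest Lrp5 transcript, with a 202-base UTR, had a 7-base miR-23 match at chr19:3584906-3584912 (minus strand, exon 23 of 23). Thus 6 of 8 members (75.0%) had a match in some annotated transcript, against 54.7% of 13717 genes. A match is a description of the sequence and does not show that the miRNA acts there.

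**Figure D1:**
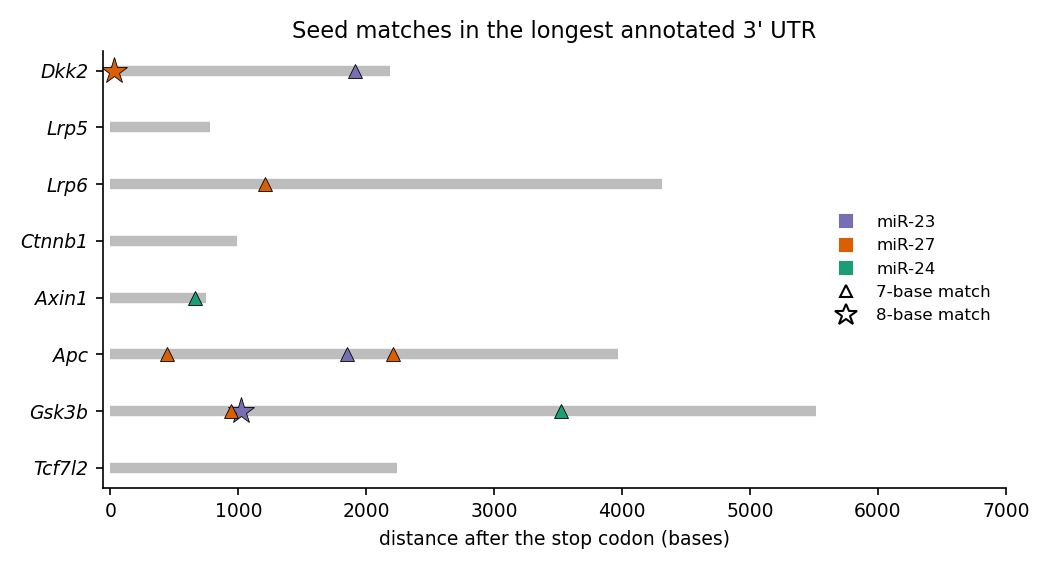
Seed matches in the longest annotated 3′ UTR of each of the 8 genes. The x axis is the distance after the stop codon in bases, grey bars are the UTRs, triangles are 7-base matches, stars are 8-base matches and colours give the miRNA; Dkk2 has its 8-base miR-27 match 29 bases after the stop codon, and Ctnnb1, Tcf7l2 and Lrp5 have no match here.

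Each gene was described by the mean normalized count that the authors give over all libraries and by their log2 fold change of knockout over control with its standard error (SE) and adjusted p-value. A gene was called when that adjusted p was under 0.05. Columns of single libraries match no sample label and were not used, so the spread between libraries is known only through the SE, the overlap of the groups could not be examined and the depth of each library is unknown. The labels do not say that each library came from its own animal, and the p-values measure only how these samples vary, which may be technical. Group means given here were derived from the authors' mean and fold change, taking the groups as equal in size, and carry no SD. Intervals are 95%, at 1.96 SE on either side. The header of the deposited table does not name the numerator, and the sign was read from Lyz2, which carries the Cre insertion and stood at -9.10 (SE 0.42) by the authors' deposited table. Every direction rests on that reading.

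The macrophage label was checked against its markers. All 12 macrophage markers were listed, with mean normalized counts in the authors' deposited table of 163291 for the M-CSF receptor gene Csf1r, 144462 for Adgre1 (F4/80) and 104490 for Cd68. Of 12, 1 was called higher and 5 lower in knockout, and 1 of the 5 is Lyz2, which carries the Cre insertion. All 12 had a mean normalized count of at least 100, where 10.2% of all genes were called higher and 15.3% lower. Of 13 markers of T cells, B cells, granulocytes, endothelium and other types, 7 were not among the genes listed, Cd3e and Cd3d included. Of the 5 with an adjusted p-value 2 were called higher and 1 lower, all endothelial and named here after their values were seen. Pecam1 was at 0.82 (SE 0.23, adjusted p = 0.00273), Cdh5 at 0.60 (SE 0.21, adjusted p = 0.0232) and Kdr at -1.30 (SE 0.19, adjusted p = 1.04e-09) by the authors' deposited table. The summed derived level of the 6 listed was 623 normalized counts in knockout and 867 in control. Kdr alone made up 248 and 613 of these, so the lower sum in knockout came from Kdr. Of the 5 with an adjusted p-value, 3 had a positive log2 fold change and 2 a negative one. The part of these other cell types in the values of the Wnt genes was not tested. Stromal markers were present and moved with genotype: 17 of 18 listed were called higher and 0 lower in the authors' deposited table, with a median log2 fold change of 1.88. Their summed derived level was 9519 normalized counts in knockout and 2630 in control. Col1a1, Col1a2, Col3a1 and Pdgfra were among those called, while Thy1 was at 1.64 (SE 0.68, adjusted p = 0.0655) and Lum was not listed. Fewer cells of a type and less RNA per cell cannot be told apart in bulk samples.

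Of the 8 genes, 3 were called (37.5%), against 23.0% of all 14619 genes with an adjusted p-value. Dkk2 and Axin1 were called lower (2 of 8, against 11.7% of all genes) and Lrp5 was called higher (1 of 8, against 11.3%). Because Dkk2 led to the choice of the list, nothing is read from these shares. The median log2 fold change of the 8 was 0.14, against -0.0040 for all genes. Apart from Dkk2, the members lay within a narrow band, between -0.18 for Axin1 and 0.44 for Lrp5 in the authors' deposited table.

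Dkk2 was the member that moved most. Its derived mean was 29.4 normalized counts in knockout, against 130.1 in control. By the authors' deposited table, the change on the log2 scale was -2.14 (SE 0.32, adjusted p = 2.41e-09), a level in knockout of 0.23 times that in control (95% interval 0.15 to 0.35). It ranked 8 from the lowest of 14619 genes by log2 fold change. Among the 1221 genes with a mean normalized count within 2-fold of its own, Dkk2 included, 1 had a lower value. Falls of genes this scarce were rare in the comparison: of 3677 genes with a mean normalized count under 100, 535 (14.5%) were called higher and 35 (0.952%) lower, and Dkk2 is 1 of the 35. Its SE was 1.33 times the median SE of the 200 genes nearest in mean. The gene lies on chromosome 3, 132085292 to 132180304 on the plus strand, and has 1 annotated transcript of 4 exons and 3705 bases.

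**Figure D2:**
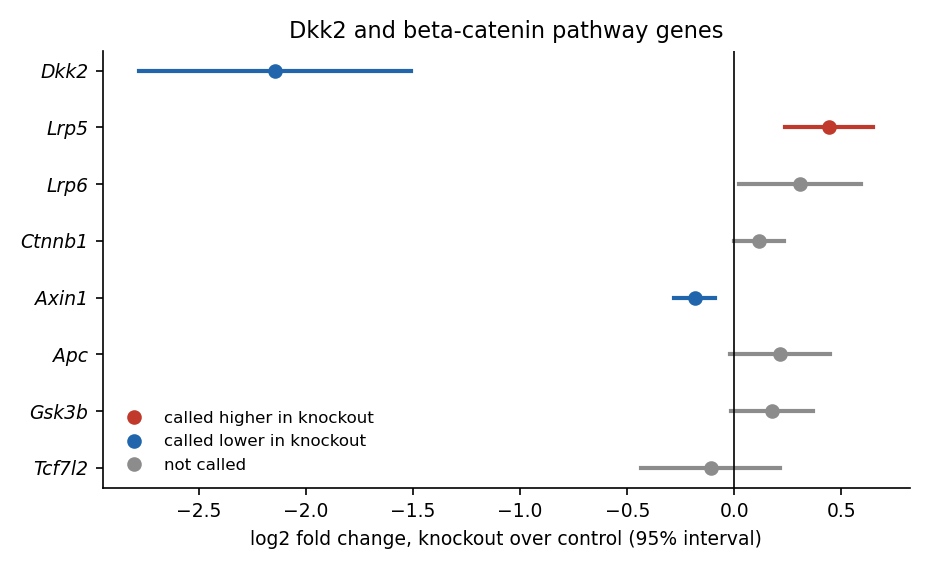
Log2 fold change of knockout over control (x axis) for the 8 genes, from the authors' deposited table. Points are the fold changes, bars the 95% intervals and colours the call; Dkk2 lies at -2.14, the interval of Lrp5 lies above 0, that of Axin1 below 0, and those of Ctnnb1, Apc, Gsk3b and Tcf7l2 include 0.

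Genes whose fold change was most like that of Dkk2 were sought among the 322 other called genes with a mean within 2-fold of its own, predicted genes left out. Of these 322, 35 were lower in knockout. The nearest over this single comparison were Tmem178 (-2.13, SE 0.37), Vsig4, a complement receptor of tissue macrophages (-2.77, SE 0.48), Bcl2a1a, a survival gene of the Bcl2 family (-1.47, SE 0.49), and B3gnt7, which encodes a glycosyltransferase (-1.20, SE 0.27), as log2 fold changes in the authors' deposited table. Reads of Bcl2a1a can be shared with close copies of the gene, so its value is uncertain.

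Genes beside Dkk2 showed no fall of comparable size. Within 1 Mb lie 10 other listed genes, with log2 fold changes between -0.39 and 0.76 in the authors' deposited table, of which 1 was called higher and 2 lower. The nearest, Papss1, which encodes an enzyme of sulfate activation, lies 441.6 kb away and was at -0.21 (SE 0.06, adjusted p = 0.0023) by the authors' deposited table. Ints12, an Integrator subunit gene 911.5 kb away, was at -0.28 (SE 0.10, adjusted p = 0.0367), and Tbck, 503.8 kb away, was at 0.23 (SE 0.06, adjusted p = 0.0013) by the authors' deposited table. These neighbours were taken by distance, outside the rule for named genes.

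The Dkk2 co-receptors did not fall with it. Lrp5, on chromosome 19 from 3584828 to 3686564 (minus strand), had a derived mean of 3580 normalized counts in knockout and 2636 in control. By the authors' deposited table it differed on the log2 scale by 0.44 (SE 0.11, adjusted p = 0.000386), a level in knockout of 1.36 times that in control (95% interval 1.18 to 1.57). Lrp6, on chromosome 6 from 134446476 to 134566965 (minus strand), had a derived mean of 10259 in knockout and 8299 in control. By the authors' deposited table the log2 fold change of Lrp6, 0.31 (SE 0.15, adjusted p = 0.114), missed the threshold although its unadjusted 95% interval, 0.02 to 0.59, lay above 0. At that SE, which was 1.96 times the median of genes of like mean, a log2 difference of 0.37 would have been needed for a call. Whether Lrp5 and Lrp6 differ from each other in response was not tested. Kremen1, which forms a complex with Dickkopf proteins and Lrp6, was at -0.01 (SE 0.08, adjusted p = 0.923) by the authors' deposited table, with a derived mean of 2352 in knockout and 2375 in control.

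Within the destruction complex, the scaffold Axin1 was lower by a small margin. Axin1 (chromosome 17, 26138688 to 26195811, plus strand) had a derived mean of 4148 normalized counts in knockout and 4715 in control. By the authors' deposited table, the change on the log2 scale was -0.18 (SE 0.05, adjusted p = 0.0018), a level in knockout of 0.88 times that in control (95% interval 0.82 to 0.94). The log2 ratio of the group means summed over all genes was -0.06. These sums include Lyz2, with a derived mean of 935 in knockout and 511449 in control, and its part in the ratio was not tested. With the fold changes centred on that ratio, Axin1 was at -0.12 and was no longer called (adjusted p = 0.0554). Its SE was the smallest of the 8 members, 0.71 times the median of genes of like mean. The Apc scaffold gene (chromosome 18, 34220924 to 34322552, plus strand) had a derived mean of 7225 in knockout and 6237 in control and stood on the log2 scale at 0.21 (SE 0.12, adjusted p = 0.19) by the authors' deposited table. The kinase gene Gsk3b (chromosome 16, 38089001 to 38246084, plus strand) had a derived mean of 10119 in knockout and 8967 in control and was at 0.17 (SE 0.10, adjusted p = 0.188) by the authors' deposited table. The 95% intervals were -0.02 to 0.45 for Apc and -0.02 to 0.37 for Gsk3b, so a rise of up to 1.36 times or 1.29 times could not be told from none.

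Ctnnb1, which encodes beta-catenin, was the most abundant member and was not called. It lies on chromosome 9 from 120929216 to 120960507 on the plus strand, and its derived mean was 25936 normalized counts in knockout and 23928 in control. The log2 fold change came to 0.12 (SE 0.06, adjusted p = 0.144) by the authors' deposited table, with a level in knockout of up to 1.18 times that in control by the 95% interval. With fold changes centred on the summed group means it was at 0.18 and passed the threshold (adjusted p = 0.0163). Transcript levels do not show the amount of beta-catenin protein, which the pathway controls through destruction. Its nuclear partner Tcf7l2 (chromosome 19, 55741820 to 55933654, plus strand) had a derived mean of 1249 in knockout and 1348 in control. At -0.11 (SE 0.16, adjusted p = 0.677) by the authors' deposited table, Tcf7l2 had the widest interval of the members after Dkk2, -0.43 to 0.21. Tcf7l2 also has 22 annotated transcripts, the most of the 8, and the gene-level value does not separate them.

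Per kilobase of the longest annotated coding transcript, the members spanned a wide range of levels. The derived level per kilobase was highest for Ctnnb1, with 7159 normalized counts in knockout and 6604 in control. Gsk3b (1219 in knockout and 1080 in control), Axin1 (1098 in knockout and 1248 in control) and Lrp6 (1095 in knockout and 886 in control) formed a middle group, whose order differs between the genotypes. Lrp5 (694 in knockout and 511 in control), Apc (564 in knockout and 487 in control) and Tcf7l2 (336 in knockout and 363 in control) followed. Dkk2 came last, with 7.94 in knockout and 35.1 in control. The transcript that each gene uses in these cells was not determined, so neighbours in this order are not separated.

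**Figure D3:**
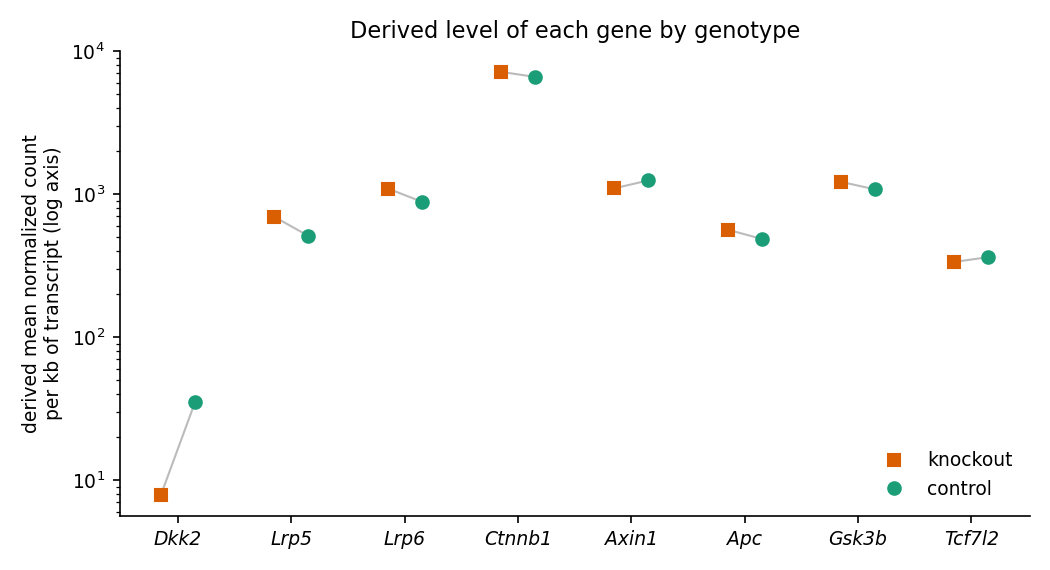
Derived mean normalized count per kilobase of the longest coding transcript (y axis, log scale) for each of the 8 genes. Orange squares are knockout and green circles control, each the mean of 4 libraries derived from the authors' values with no error bar; Dkk2 lies far below the others, at 7.94 in knockout and 35.1 in control.

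The rest of the pathway was described with 8 lists of genes by role, 119 gene symbols in all. Tle5 was entered also under its older symbol Aes, which was not listed. Of the 119 symbols, 87 were listed and 81 had an adjusted p-value. Of the 81, 20 (24.7%) rose and 13 (16.0%) fell by that threshold, against 11.3% and 11.7% of all genes, and the median log2 fold change was 0.13. The direction followed abundance. Of 29 with a mean normalized count under 100, 13 were called higher and 1, Dkk2, lower, with a median of 1.20, against 14.5% and 0.952% of all genes that scarce and a median of 0.33. Of 52 with a mean of at least 100, 7 were called higher and 12 lower, with a median of 0.0027, against 10.2% and 15.3% of all genes that abundant and a median of -0.04. The lists are small, were chosen with earlier results of these data known, and were not tested as sets.

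**Figure D4:**
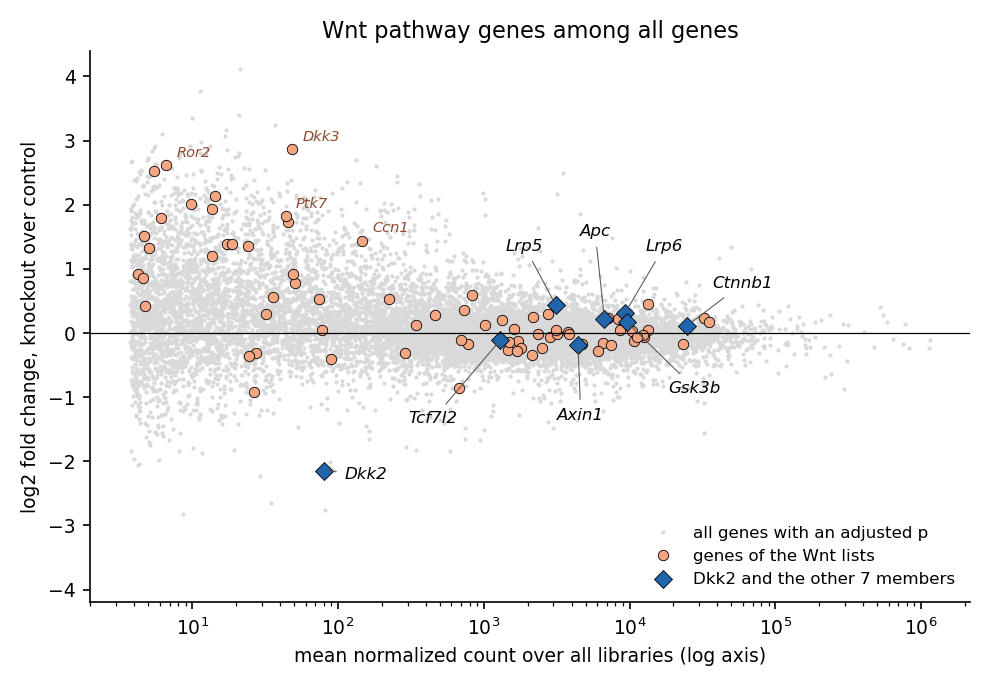
Log2 fold change of knockout over control (y axis) against the authors' mean normalized count (x axis, log scale) for 14616 genes; 3 genes below -4.2, Lyz2 included, lie outside the plot. Orange circles are the genes of the Wnt lists and blue diamonds the 8 members; most scarce Wnt genes lie above 0, Dkk2 lies at -2.14, and the abundant pathway genes lie close to 0.

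Among the antagonists, Dkk2 moved against the other called genes. Of 5 with an adjusted p-value, 3 were called higher and 1 lower, with a median log2 fold change of 1.93. All 4 called had a mean normalized count under 100, where 14.5% of all genes were called higher and 0.952% lower. Dkk3, a more distant secreted member of the Dickkopf family, had a derived mean of 85.3 normalized counts in knockout and 11.7 in control. The log2 fold change of Dkk3 came to 2.86 (SE 0.48, adjusted p = 1.11e-07) by the authors' deposited table, the highest of all Wnt list genes. Apcdd1, a membrane-bound Wnt inhibitor, was at 1.93 (SE 0.62, adjusted p = 0.0121) and Sfrp4, a secreted Frizzled-related protein gene, at 2.53 (SE 0.95, adjusted p = 0.0366) by the authors' deposited table, with mean normalized counts of 13.7 for Apcdd1 and 5.42 for Sfrp4. Dkk1 and Dkk4 were not among the genes listed.

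Receptor genes that were called all rose. Of 13 with an adjusted p-value, 6 (46.2%) were called higher and 0 lower, with a median log2 fold change of 0.53. The calls were 4 of 7 with a mean normalized count under 100 and 2 of 6 with a mean of at least 100. Of all genes under that mean, 14.5% were called higher and 0.952% lower, and of the rest 10.2% higher and 15.3% lower. In the authors' deposited table Ptk7, a co-receptor of noncanonical Wnt signalling, was at 1.82 (SE 0.30, adjusted p = 5.6e-08), Fzd6 at 1.73 (SE 0.37, adjusted p = 7.03e-05) and Fzd2 at 2.00 (SE 0.63, adjusted p = 0.011). Fzd6 and Fzd2 encode Frizzled receptors. The other called genes were Lrp5, Fzd5 and Ror2. The abundant Frizzled gene Fzd7, named outside the rule after its value was seen, was at 0.05 (SE 0.15, adjusted p = 0.858) by the authors' deposited table, with a derived mean of 3188 in knockout and 3085 in control. Fzd4, also named outside the rule after its value was seen, was the single receptor gene with a negative value, -0.92 (SE 0.41, adjusted p = 0.0909) by the authors' deposited table, and was not called.

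Wnt ligand genes were scarce throughout. Of 19, 8 were listed and 6 had an adjusted p-value, with mean normalized counts of 4.69 to 36.0. Among all genes with a mean under 100, 14.5% were called higher. Wnt5a, a ligand known mainly for signalling without beta-catenin, was the single ligand called, at 1.40 (SE 0.52, adjusted p = 0.0357) by the authors' deposited table, with a derived mean of 27.0 in knockout and 10.3 in control. Wnt6 was at 0.57 (SE 0.38, adjusted p = 0.289) and Wnt4 at -0.31 (SE 0.37, adjusted p = 0.587) by the authors' deposited table. Of the genes for Wnt secretion, Wls, the carrier that takes Wnt proteins to the surface, was at 0.05 (SE 0.05, adjusted p = 0.416) and Porcn, which attaches their lipid, at -0.40 (SE 0.20, adjusted p = 0.134) by the authors' deposited table, so neither was called.

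In the R-spondin module, which raises Wnt receptor levels at the surface, 3 of 5 genes were called higher and 0 lower, with a median log2 fold change of 0.92. The 3 called had a mean normalized count under 100, where 14.5% of all genes were called higher and 0.952% lower. The receptor genes Lgr6 (2.14, SE 0.59, adjusted p = 0.0026) and Lgr4 (0.92, SE 0.27, adjusted p = 0.0047) and the ligand gene Rspo2 (1.39, SE 0.52, adjusted p = 0.0361) rose in the authors' deposited table. Their mean normalized counts ran from 14.3 to 48.8. Beside these scarce antagonist, receptor, ligand and R-spondin genes stand the stromal markers, of which 17 of 18 were called higher with a median of 1.88, and the part of stromal RNA in these rises was not tested.

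**Figure D5:**
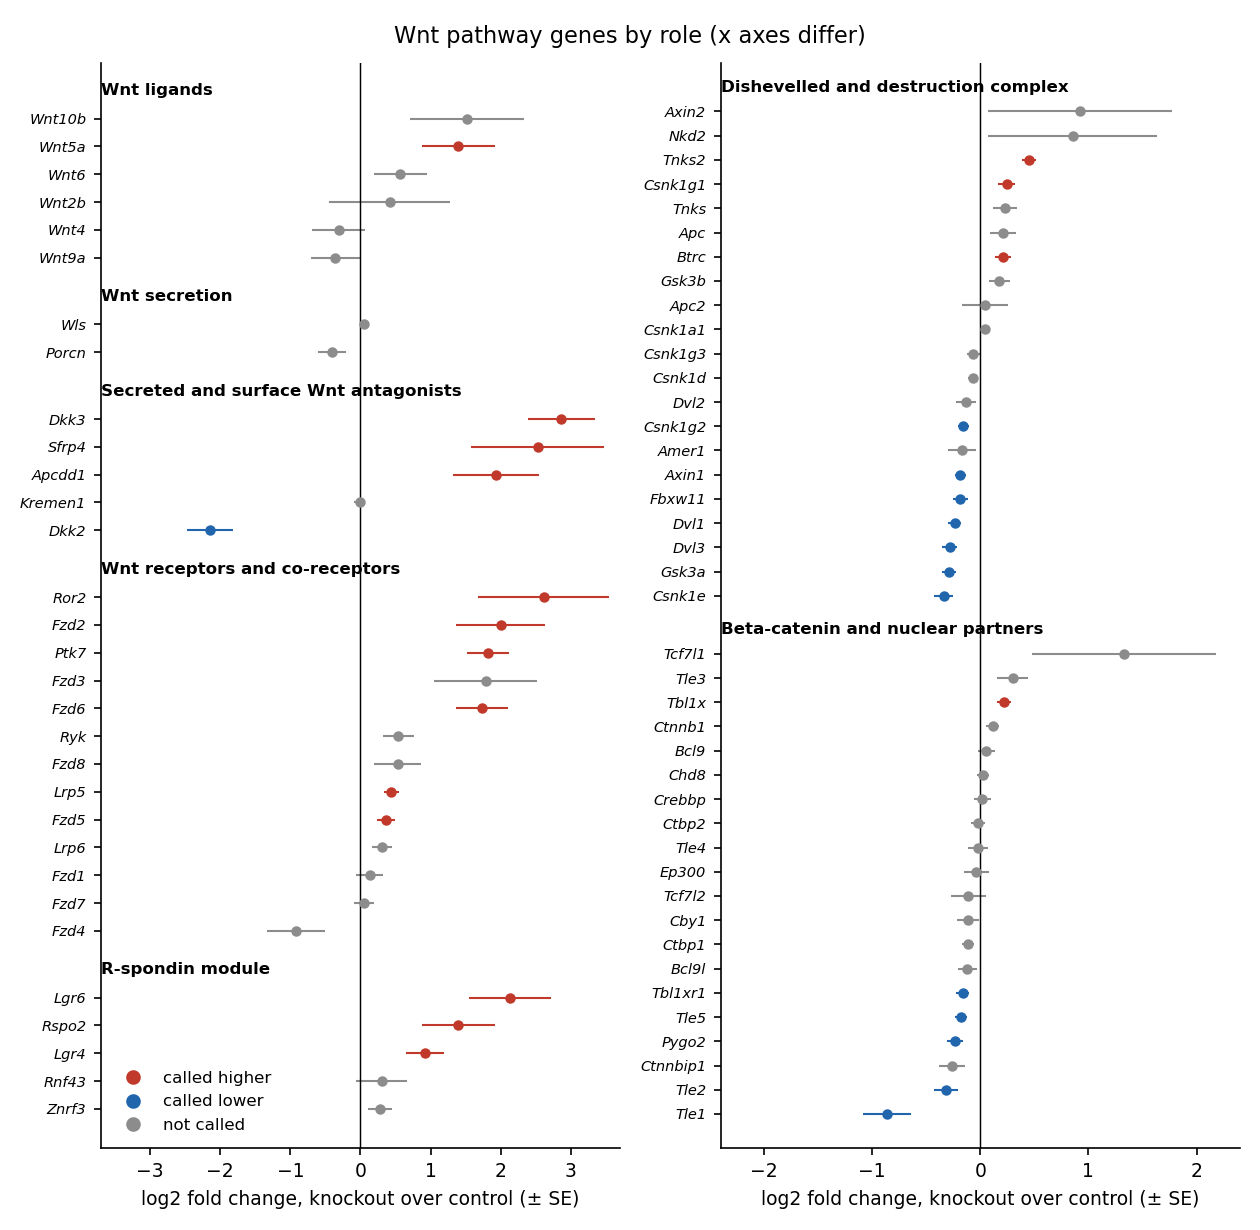
Log2 fold change of knockout over control with its SE (x axes, which differ between the panels) for the Wnt genes with an adjusted p-value, by role, from the authors' deposited table. The list of textbook beta-catenin targets is not drawn. Red marks called higher, blue called lower and grey not called; in the left panel Dkk2 is the single gene called lower, and in the right panel most called genes lie slightly below 0.

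Inside the cell, the called genes were mostly lower and by small amounts. Of 21 Dishevelled and destruction complex genes, 3 were called higher and 7 lower, with a median log2 fold change of -0.06. All 10 called had a mean normalized count of at least 100, where 10.2% of all genes were called higher and 15.3% lower. Tnks2, a tankyrase gene whose product marks Axin for breakdown, had the smallest adjusted p, with 15384 normalized counts in knockout and 11288 in control as derived means and a log2 difference of 0.45 (SE 0.07, adjusted p = 6.47e-10) by the authors' deposited table. The kinase gene Gsk3a was at -0.29 (SE 0.07, adjusted p = 0.00018), and the Dishevelled genes Dvl3 and Dvl1, which relay the receptor signal, were at -0.28 (SE 0.07, adjusted p = 0.00027) and -0.24 (SE 0.06, adjusted p = 0.0011) by the authors' deposited table. Gsk3a was thus called lower while its paralog Gsk3b was not called, and the difference between the paralogs was not tested. Centring on the summed group means gave 4 higher and 4 lower in this list.

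Of 20 beta-catenin and nuclear partner genes, 1 was called higher and 5 lower, with a median log2 fold change of -0.07. Among all genes with a mean normalized count of at least 100, as 19 of the 20 had, 10.2% were called higher and 15.3% lower. Tle1, a Groucho corepressor that silences TCF targets, was at -0.86 (SE 0.22, adjusted p = 0.0014) by the authors' deposited table, with a derived mean of 482 in knockout and 877 in control. Pygo2, a coactivator of beta-catenin, was at -0.23 (SE 0.07, adjusted p = 0.0075) and Tle5, a short Groucho relative, at -0.18 (SE 0.05, adjusted p = 0.0078) by the authors' deposited table. Tbl1x, of a corepressor exchange complex, was at 0.22 (SE 0.07, adjusted p = 0.0087) by the authors' deposited table. With centring on the summed group means 2 were called higher and 1 lower, and Pygo2 and Tle5 lost their calls.

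Textbook beta-catenin targets were called higher in 4 of 14 cases and lower in 0, with a median log2 fold change of 0.44. The calls were 3 of 6 with a mean normalized count under 100 and 1 of 8 with a mean of at least 100. The shares of all genes called higher were 14.5% under that mean and 10.2% for the rest. The 4 were Ccn1 (1.44, SE 0.34, adjusted p = 0.0003), a matricellular gene, Apcdd1, Ccn4 (1.36, SE 0.48, adjusted p = 0.0256), also known as Wisp1, and the AP-1 gene Fosl1 (0.78, SE 0.30, adjusted p = 0.044), as log2 fold changes in the authors' deposited table. Ccn1 and Ccn4 are also expressed by fibroblasts, and their mean normalized counts were 145.3 and 24.0. Of the targets with an adjusted p-value that are often used as reporters, Axin2 and Myc were not called. Axin2 was at 0.92 (SE 0.85, adjusted p = 0.463) with a mean normalized count of 4.22, and Myc at 0.13 (SE 0.18, adjusted p = 0.642), both by the authors' deposited table. The abundant targets Ccnd1 (0.23, SE 0.15, adjusted p = 0.282) and Cd44 (0.16, SE 0.08, adjusted p = 0.112) also missed the threshold in the authors' deposited table. Axin2, Myc, Ccnd1 and Cd44 were named outside the rule, after their values were seen. Stromal markers were higher in the same comparison (17 of 18 called), and their part in the target genes was not tested.

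Seed matches and fold changes were then set side by side. Of the 5 members with a match in the longest 3′ UTR, Dkk2 and Axin1 were called lower and Lrp6, Apc and Gsk3b were not called, so 0 of 5 were called higher. Dkk2 was chosen for its fold change and 5 genes are few, so nothing is read from this count. Over the Wnt lists, 46 of 80 genes (57.5%) had a match, of which 12 were called higher and 7 lower (median log2 fold change 0.17), and of the 34 without a match 8 were called higher and 5 lower (median 0.13). Of all 6976 genes with a match, 1033 were called higher and 743 lower (median 0.02), and of the 6091 without, 546 were called higher and 910 lower (median -0.04). Genes with a match have longer 3′ UTRs, with a median of 1934 bases against 566. Among the 810 genes with an 8-base miR-27 match, 191 were called higher and 58 lower, and Dkk2 had the lowest log2 fold change of the 810. Of all 14619 genes with an adjusted p-value, 1651 (11.3%) were called higher and 1712 (11.7%) lower. The 3′ UTR lengths of the 810 were not compared with those of other genes.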

How the data were processed

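Polyadenylated RNA of 8 libraries was sequenced, 4 knockout and 4 control, per the labels' protocols. FastQC, cutadapt, Salmon and DESeq2 with the mm10 build are named in the submitters' processing notes, and the sources used here do not give their versions and settings. Per the file headers, the deposited comparison holds the authors' mean normalized count (a signal over all libraries), the log2 fold change with its SE, the Wald score, and the p-value with its adjusted p-value from DESeq2. Normalized values of single libraries fill 8 deposited columns whose names match no sample label, so these were not used, and limma refits, a replicate block and leaving out libraries were not run.

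Calls are the authors', at an adjusted p under 0.05, and 14619 of 15853 genes had one to judge by. Group means, intervals, centred fold changes and Benjamini-Hochberg adjustments were computed in Python 3.11.15 with scipy 1.17.1 and pandas 2.3.3. Centring on the median fold change and the search for seed matches were tested on simulated data. The adjustment was compared with another implementation on the deposited p-values. The intervals and the centring on the summed group means were not tested in this way. GENCODE M21, whose GRCm38 assembly is that of mm10, gave positions and 3′ UTRs; 95.8% of genes, all 8 members included, matched 1 gene there by symbol. Matches comprised the complement of seed bases 2 to 8, or of bases 2 to 7 followed by A. miRNA sequences came from RefSeq. The members and the gene lists were chosen with earlier results of these data known. Named were the members, up to 4 called genes per list by adjusted p, up to 2 abundant uncalled genes where fewer than 2 were called, Lyz2, and 4 genes nearest to Dkk2. For the markers of other cell types, 1 gene is not reported here.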

Additional observations from a re-analysis of the deposited data

How the results depend on the processing

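Alternatives were no filter on the mean, a mean of at least 50, centring on the sum of all group means (-0.06) or on the median fold change, and an adjusted p under 0.01. The members called numbered 3 under each (Ctnnb1 in place of Axin1 with the first centring), and Dkk2 kept its call under each, with log2 fold changes of -2.14 to -2.08. The sums of all group means include Lyz2, which carries the Cre insertion, and its part in the shift was not tested. Centring on the summed group means gave 2339 genes higher and 960 lower (70.9% of calls higher), against 1651 and 1712 (49.1%). With it, Wnt secretion genes called numbered 1 (Wls, adjusted p = 0.0479) in place of 0, and beta-catenin and nuclear partners 3 in place of 6; the cause was not tested. At a mean of at least 50, fewer genes are tested, and with 0 Wnt ligands tested none could be called. The genes called there numbered 0 of 1 tested for the R-spondin module, 2 of 7 for receptors, 1 of 2 for antagonists and 2 of 9 for targets. Of all 11563 genes tested there, 1305 were called higher and 1757 lower. At an adjusted p under 0.01 the called genes numbered 0 of 6 for ligands, 3 of 13 for receptors and 2 of 5 for antagonists. They numbered 6 of 21 for Dishevelled and the destruction complex and 1 of 14 for targets. Of all 14619 genes, 1047 were called higher and 1009 lower at that threshold. Members with a seed match numbered 2 with 8-base matches alone and 6 with all transcripts, against 5. The shares of all genes with a 3′ UTR were 19.3%, 54.7% and 53.0% in that order. Of 172 values of 37 other named genes under the alternatives, 159 kept their call or lack of one, 11 lost a call, 2 gained one and 0 changed sign. Named genes with a mean under 50 have no value in the 172 at a mean of at least 50. Called genes such as Ptk7, Fzd6 and Dkk3 are among them and are not counted there as lost calls. Most lost calls were of scarce genes at the stricter threshold. The SE limits what scarce genes can show: Axin2, at an SE of 0.85, could hide a change in either direction. No paired analysis was possible because no library column names a sample or a replicate, and leaving out each library was not possible for the same reason.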

Other observations

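Dkk2 combines an 8-base miR-27 match placed 29 bases after its stop codon with the lowest log2 fold change of the 810 genes that hold such a match. The next lowest of them stood at -2.04 (SE 0.88) by the authors' deposited table, and the median of the 810 was 0.12. Genes with an 8-base miR-23 match (910) had a median of 0.08, with 186 called higher and 58 lower. Those with an 8-base miR-24 match (1144) had a median of 0.04, with 184 called higher and 97 lower. Over all 14619 genes with an adjusted p-value, 1651 (11.3%) were called higher and 1712 (11.7%) lower. These groups were not matched to other genes by 3′ UTR length, and the part of length in the counts was not tested. Dkk2 was chosen for its fold change, so its place among these genes is a description.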
